A study of Homo sapiens with 288 samples.

Results

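The cells described here are endothelial cells (EC) made in culture from H1, an established line of human embryonic stem cells. They were given by their labels: all libraries whose sample type is EC, which are 135 of the 288 libraries of the series. For EC, H1 cells were held for 2 days in the stem cell medium E8 with BMP4 at 5 ng/ml and activin A at 25 ng/ml, and for 3 further days with VEGF and WNT. The comparison cells (TB, trophoblast-like cells) came from the same line, seeded in E7, which is E8 without FGF2, with BMP4 at 50 ng/ml and SB431542. Single cells were captured on a Fluidigm C1 chip, their cDNA was amplified over its full length, and the cDNA of the same 45 EC and 51 TB cells was brought to equal amounts and sequenced in 3 experiments (EQ, EQ-Vary, EQ-75%). EQ is the main experiment here, EQ-Vary was pooled in variable volumes, and EQ-75% repeated EQ at a lower depth. A cell number is the same cell in all 3 experiments, and the experiments repeat neither culture nor capture nor cDNA synthesis. EQ-75% repeated the library preparation, whereas for EQ-Vary the sources used here state another pooling and do not say whether libraries were prepared anew. No separate cultures and no sort on a surface marker are named in the sources used here. Each cell type is therefore 1 sample, SDs give the spread over cells, and p-values are not given.

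Endothelial cells line blood and lymph vessels. They hold together through junction proteins such as VE-cadherin (CDH5) and PECAM1, and they answer VEGF through KDR and angiopoietins through TEK. In development they arise from mesoderm under ETS-family, GATA and SOX transcription factors, and Notch signalling takes part in setting arterial against venous identity and sprouting tip cells against stalk cells.

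Of the 45 EC cells, 38 passed the limits in EQ, which were a log10 total count of at least 5.4 and at most 31% of the counts in the 50 most abundant genes. The passing cells held 471593 to 3966801 counts (median 2025145). Levels are given as CPM, a gene's counts per 1000000 counts of the cell, and a gene was called present in a cell at 10 CPM or more. This threshold was taken because genes of one cell type were found at a low level in the other, pooled in the same lane. Among 956 genes of at least 200 CPM in TB, 29 were at 1% or less of their TB level in EC, with a median of 0.334%, and 45 of 1031 EC genes showed the same in TB with a median of 0.282%. Of the 7 EC libraries outside the limits, EC 1, EC 14 and EC 41 held 11418 to 13967 counts. EC 40, EC 42, EC 44 and EC 45 held 36.6% to 57.6% of their counts in the 50 top genes, and their MTRNR2L genes, near-identical copies of a mitochondrial gene, summed to 98402 to 200406 CPM against 2843 to 43086 CPM in passing cells.

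A passing library, EC 15, stood apart from the other 37. Its 5 label markers (PECAM1, CDH5, KDR, TEK and CD34) summed to 228 CPM, against 1499 CPM in the next lowest cell and a median of 4731 CPM in the others. The sum was as low in the repeats, at 246 CPM in EQ-Vary and 159 CPM in EQ-75%, and its depth of 2007482 counts was close to the median. The same cell had the highest sums of the pluripotency list (3501 CPM, next 2118), the trophoblast list (3966 CPM, next 1701) and the S-phase list (2902 CPM, next 1153). It held 54 genes at 50 CPM or more that were at least 10-fold above every other EC cell (counted after adding 1 CPM), where the median cell held 11.5. Among these were SOSTDC1 (484 CPM, at most 2.9 CPM elsewhere), a secreted antagonist of BMP and WNT signalling, IGSF10 (273 CPM), TRPC5 (264 CPM), MCM2 (387 CPM), a subunit of the replicative helicase, and NANOS3 (83.2 CPM, at most 0.363 CPM elsewhere), an RNA-binding protein of germ cells. NANOG, a transcription factor of pluripotent cells, was at 1502 CPM in EC 15 and at most 202 CPM in the others. TFAP2C was at 995 CPM against at most 52.0 CPM, and POU5F1 at 384 CPM against at most 122 CPM. EC 15 also held 816 CPM of PRDM1 and 229 CPM of SOX17, levels that other EC cells reached. Over 8871 genes its log2 profile still correlated more with the mean of the other EC cells (r = 0.643) than with the TB mean (r = 0.576). The margin of 0.067 was the smallest of the 38 cells, the next being 0.132. All 38 EC cells were closer to the EC mean and 0 of 48 TB cells were. Some results in which EC 15 counts are given with and without it, and the others include it.

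The label markers were high in nearly all of the other 37 cells. PECAM1, an adhesion molecule of endothelial junctions (chr17:64319415-64413776, minus strand, GENCODE v44 on GRCh38, as for the coordinates that follow), was at 28.7 CPM in the lowest cell, 1005 CPM in the median cell and 4032 CPM in the highest, with a mean of 1317 ± 883 CPM (SD, n = 38 cells). CDH5 (chr16:66366690-66404784, plus strand) ranged from 34.4 to 2282 CPM with a median of 332 and a mean of 406 ± 399 CPM. KDR, the main VEGF receptor of endothelium (chr4:55078481-55125595, minus strand), ranged from 51.3 to 3318 CPM with a median of 1806 and a mean of 1600.1 ± 710.1 CPM. These 3 genes were present in every passing EC cell, as were 5.23% of all genes.

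TEK, the angiopoietin receptor (chr9:27109141-27230174, plus strand), ranged from 2.12 to 1532 CPM with a median of 209.7 CPM and was present in 35 of 38 cells. CD34, a sialomucin of endothelial and blood progenitors (chr1:207880972-207911402, minus strand), ranged from 10.7 to 1926 CPM with a median of 667 and was present in every cell. The TB means were 15.0 CPM for PECAM1, 0.752 for CDH5, 4.27 for KDR, 0.516 for TEK and 1.77 for CD34. CDH5 and KDR did not overlap between the cell types, as was also seen for ESAM and FLI1 and held for 0.04% of all genes, whereas PECAM1 reached 77.4 CPM in TB, TEK 6.07 CPM and CD34 21.9 CPM, above the lowest EC cells. The cell with the lowest value differed by gene: EC 15 for CDH5 and KDR, EC 43 for PECAM1, EC 21 for TEK and EC 24 for CD34. EC 43 held 1198 CPM of KDR and EC 24 held 1589 CPM, so a low level of 1 marker did not go with low levels of all.

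**Figure D1:**
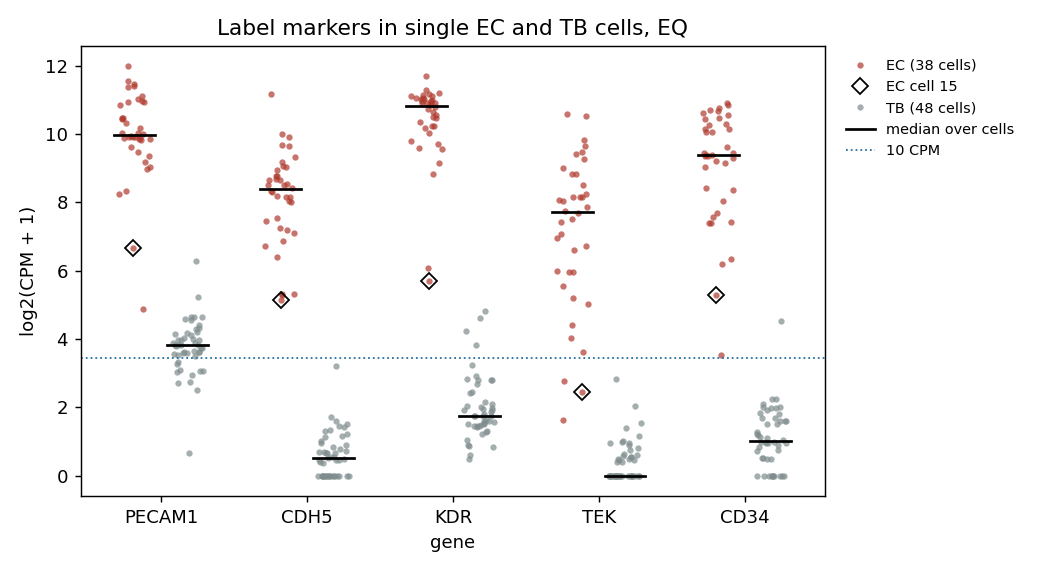
Level of the 5 label markers in each passing EC cell (red, 38 cells) and TB cell (grey, 48 cells) of EQ, on a log2(CPM + 1) axis, with the median of each group as a black bar, EC 15 as an open diamond and 10 CPM as a dotted line. EC cells sit above TB cells for CDH5 and KDR without overlap, EC 15 is the lowest for these 2 genes, and TEK spreads from 2.12 to 1532 CPM within EC.

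Levels of different genes were compared per length of the canonical transcript, scaled to a total of 1000000 in each cell. On this scale KDR was at 669.5 ± 299 (SD, n = 38 cells), PECAM1 at 473 ± 311, CDH5 at 257 ± 312, CD34 at 244 ± 172 and TEK at 172 ± 222. Each neighbouring pair in this order differed by less than the SDs. The highest genes per length were FTL, the light chain of the iron store ferritin (20328 ± 12698), GAPDH (11671 ± 3379), ACTB (9740 ± 3810), TMSB4X and TMSB10, which bind monomeric actin (8439 ± 2301 and 7260 ± 2578), ENO1 (6946 ± 3473), EEF1A1, MYL6, TPI1 and RPL41. GAPDH, ENO1 and TPI1 are enzymes of glycolysis.

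To place the EC program against another cell type of the same line, the mean CPM in EC was divided by that in TB after adding 1 CPM, and a gene was called at a ratio of 4 or more. On this scale 5.7% of 17492 genes were higher in EC and 7.96% were lower, and the median log2 difference over all genes was 0.0. The shares were 5.79% and 7.88% in EQ-Vary and 5.3% and 8.14% in EQ-75%. The 8 endothelial lists and the label markers together held 93 measured genes, of which 53 were higher in EC, 2 were lower and 38 were within 4-fold. Their median log2 difference was 3.11. It was 3.22 with the 4 genes at 0 in TB set at the bound that 3 counts give. Such bounds were taken without the added 1 CPM, so this median and the list medians given below with bounds mix unlike scales. Without EC 15 the count of higher genes over the table was 990 in place of 997, and without the highest EC cell of each gene it was 631. The last setting takes a cell from EC alone and can only lower EC means, and the count of lower genes went from 1392 to 2084. The fall to 631 is therefore not a measure of calls that rest on 1 cell alone. Among the higher endothelial genes, ENG and PLAUR lost their calls in that setting. More calls were lost in other settings. With 10 CPM added in place of 1, these were CLDN5, FLT4, ENG, ACVRL1, LMO2, SOX18, JAG2, STAB1, PLAUR, CAV1, THBD and LAMA4. Taking medians over cells, they were CLDN5, FLT4, ENG, ACVRL1, JAG2, CXCR4, ANGPT2, PLAUR, CAV1, THBD, SELP, ICAM1 and LAMA4. With the median over cells in place of the mean, 27.3% of all calls were higher in EC, against 41.7% with the mean.

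Junction and adhesion genes were divided between those with high EC levels and those shared with TB. Of 14 measured members, 7 were higher in EC and 0 were lower, with a median log2 difference of 1.89 (3.41 with CLDN5 at its bound). Beside CDH5, PECAM1 and CD34 these were ESAM, an endothelial adhesion molecule (229 ± 136.5 CPM in EC and 0.644 in TB, present in every EC cell), JAM3, a junctional adhesion molecule (921 ± 533 CPM against 3.78), MCAM (299.9 ± 235 CPM against 5.28, present in 37 of 38 cells) and CLDN5. CLDN5, the tight-junction claudin of mature endothelium, was present in 5 of 38 cells with 52.9 CPM in the highest and was at 0 in TB, so only a lower bound can be given: it was at least 156-fold higher in EC, counted against the 0.0311 CPM that 3 counts over all TB cells would give. F11R (884 ± 577 CPM), CD99 (484 ± 293 CPM), TJP1 (417 ± 258 CPM), CTNNB1 (1318 ± 630 CPM), JAM2 and CDH2 were within 4-fold of TB. ROBO4, an endothelial guidance receptor, had a mean of 1.19 CPM and was present in 0 of 38 cells, which allows a share of up to 9.25% (exact binomial 95% interval, counting error only).

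Receptors for VEGF, angiopoietin and BMP ligands were higher in EC for 8 of 10 members and lower for 0, with a median log2 difference of 3.63 (4.50 with FLT4 at its bound). FLT1, a VEGF receptor that can act as a decoy, was present in every EC cell at 16.6 to 2576 CPM, with a mean of 729 ± 619 CPM against 8.44 in TB. TIE1, the partner of TEK, was present in 27 of 38 cells (50.5 ± 57.5 CPM against 0.0715). The co-receptors differed: NRP2 was at 310.5 ± 311 CPM against 64.2, past 4-fold, and NRP1 at 424 ± 328 CPM against 179, within it. FLT4, the receptor of lymphatic growth, was present in 11 cells and at 0 in TB. ENG and ACVRL1, which bind BMP9 and BMP10, were present in 7 and 6 cells with medians of 1.34 and 0.0 CPM. The call of ENG was lost without EC 10, its highest cell at 209 CPM, when its mean went from 13.5 to 8.23 CPM. KDR and FLT1 were thus present in every EC cell and ENG and ACVRL1 in a minority.

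Among 15 transcription factors of endothelial development, 11 were higher in EC and 0 lower, with a median log2 difference of 4.74. The ETS factors FLI1 and ERG were at 525 ± 328 and 202 ± 244 CPM against 1.57 and 0.510 in TB, present in 38 and 34 cells. ELK3 (343 ± 457 CPM), ETS1 (236 ± 217 CPM) and MEF2C (288 ± 323 CPM) were present in 37, 37 and 34 cells. ETV2, the ETS factor that acts early in the making of endothelium, was present in 1 of 38 cells, at 27.3 CPM. SOX7 was present in every cell (572.5 ± 386 CPM against 91.1 in TB), whereas its relatives SOX17 (35.1 ± 68.4 CPM) and SOX18 (9.59 ± 11.4 CPM) were present in 14 and 15 cells. TAL1, a factor of blood and endothelial precursors, was at a median of 53.4 CPM, was present in 26 cells and reached 1718 CPM. Its partner LMO2 was present in 19 cells, and 12 cells held both. LYL1, a close relative of TAL1, was at a mean of 0.167 CPM. FLI1 and SOX7 were the only members of this list present in every cell.

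Of 14 arterial and Notch genes, 8 were higher in EC and 0 lower, with a median log2 difference of 3.61, and 0 were present in every cell. DLL4, the Notch ligand of tip and arterial cells, was at 93.6 ± 121 CPM against 0.151, from 0.0 to 547 CPM with a median of 36.5, in 29 cells. GJA4, a connexin of arteries, was at 197 ± 194 CPM in 31 cells, and 26 cells held both genes. HEY2, a target of Notch, was present in 19 cells (59.4 ± 85.8 CPM), 13 of which held DLL4. CXCR4 was present in 8 cells, at 998 CPM in EC 3 and a median of 0.752 CPM. NOTCH4 (42.8 ± 69.6 CPM in 16 cells), UNC5B and JAG2 were also past 4-fold, while NOTCH1, JAG1, HEY1, HES1, EFNB2 and NRP1 were within it. EFNB2, an arterial ephrin, was nonetheless present in 36 cells at 387 ± 389 CPM.

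Of 9 venous and lymphatic genes, 4 were higher in EC and 1 was lower, with a median log2 difference of 1.18 (2.26 with 2 genes at their bounds). APLNR, the apelin receptor found on early veins, was present in 37 cells at 338 ± 274 CPM against 0.488, and absent at this threshold only from EC 15 (1.99 CPM). NR2F2, a factor of venous identity, was at 9.07 ± 21.2 CPM against 182 in TB and was present in 6 EC cells, at most at 91.3 CPM in EC 33. Of these 6 cells, 3 also held DLL4. STAB1 (22.03 ± 32.6 CPM) and FLT4 were past 4-fold with 16 and 11 cells. LYVE1, a lymphatic marker, was at 0 in all passing cells of both types. PDPN was at 11.6 CPM against 35.9 in TB, of which EC 15 gave 369.6 CPM, and without that cell it was at 1.97 ± 3.52 CPM (n = 37) and counted as lower. All 29 cells with DLL4 held APLNR too, an overlap that the presence of APLNR in 37 of 38 cells makes likely. The pairs in this and the preceding paragraph were chosen after their values were seen.

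Tip and stalk genes included 7 of 11 members higher in EC and 0 lower, with a median log2 difference of 3.496, and several were shared with the lists above. APLN, the apelin ligand made by tip cells, was at 81.0 ± 82.3 CPM against 0.0957 in 31 cells, each of which also held its receptor APLNR. ANGPT2, a ligand of TEK that loosens vessels, ranged from 0.972 to 858 CPM with a median of 24.5 in EC. PLAUR was past 4-fold by a log2 difference of 2.19, and 1.96 without EC 35. ESM1, a tip-cell proteoglycan, was present in 1 of 38 cells, and PGF in 0.

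Products of the vessel wall were higher in EC for 12 of 15 members and lower for 0, with a median log2 difference of 4.86. TFPI, an inhibitor of coagulation, was present in every cell at 196 to 3040.3 CPM (mean 1528 ± 618 against 35.4 in TB). ECSCR (415 ± 260.3 CPM), PLVAP, the protein of endothelial diaphragms (219 ± 170.1 CPM), and EGFL7 (113.5 ± 106 CPM) were each present in 37 cells. PROCR, the protein C receptor, was present in 33 cells (369.7 ± 473 CPM). Genes that mark more mature or activated endothelium were uneven: VWF, which carries factor VIII and binds platelets, was present in 20 cells with a median of 13.9 CPM and 1554 CPM in EC 13, EMCN in 19, CAV1 in 17, THBD in 14 and SELP in 6. SELE, the E-selectin of activated endothelium, had a median of 193 CPM, was present in 27 cells and reached 4123 CPM in EC 12. VCAM1, another gene of activated endothelium, was at 0 in all passing cells. NOS3, the endothelial nitric oxide synthase, was at 43.04 ± 53.3 CPM against 12.2, within 4-fold.

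Secreted angiogenic and matrix products were the endothelial list nearest to the background, with 4 of 16 members higher, 1 lower and a median log2 difference of 0.29. The higher genes were the basement membrane collagens COL4A1 (326 ± 285 CPM, every cell) and COL4A2 (109.9 ± 123 CPM), the laminin LAMA4 and ANGPT2. SPARC was at 1297 ± 756 CPM against 2125 in TB and LAMB1 at 156 ± 291.5 CPM against 378. EDN1, the vasoconstrictor endothelin, was present in EC 15 alone (294 CPM), and its mean over the other 37 cells was 0.328 ± 0.799 CPM against 41.1 in TB. ANGPT1 and VEGFC were at 0 in both cell types, VEGFA was present in 11 EC cells and PDGFB in 9.

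**Figure D2:**
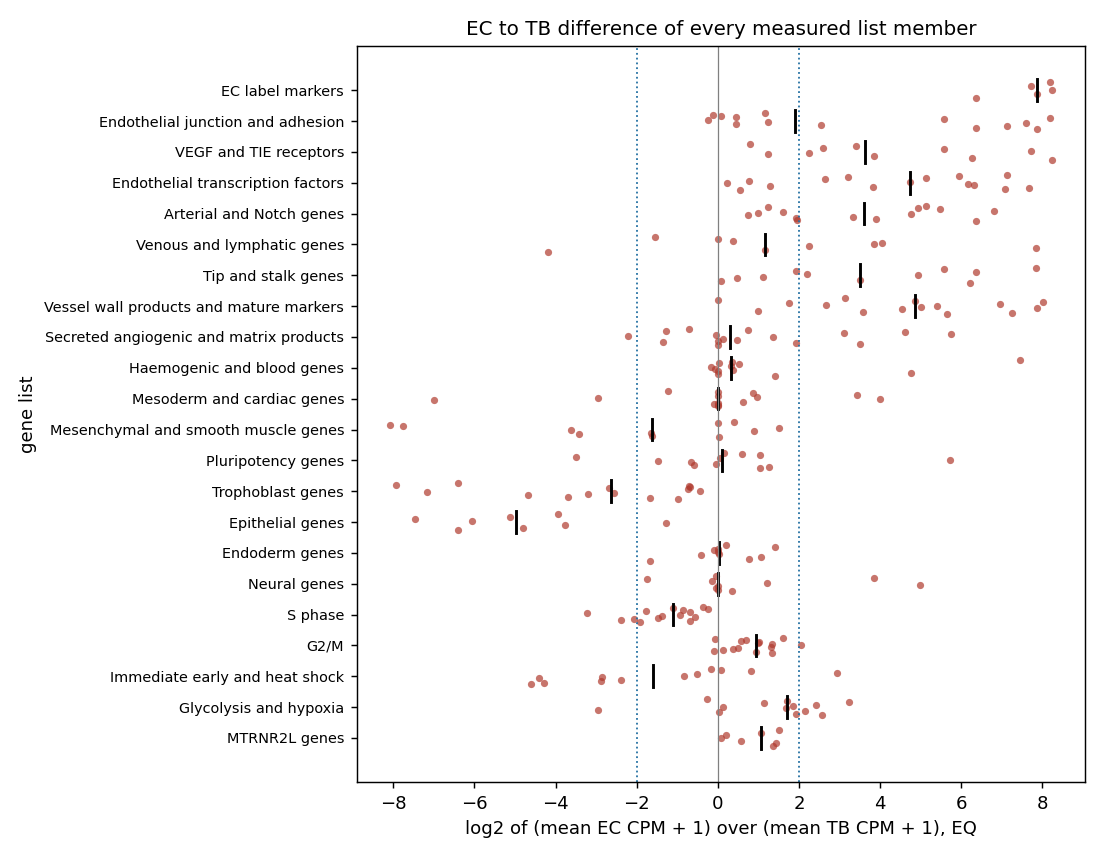
Log2 difference of every measured member of the 22 gene lists between EC and TB in EQ, from mean CPM + 1, each point 1 gene, black bars the list medians and dotted lines 4-fold. Endothelial lists lie to the right, with 53 of 93 genes past 4-fold, and the trophoblast and epithelial lists to the left, with 8 of 14 and 7 of 8 genes past it.

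The 20 genes with the largest differences among those of at least 10 CPM in EC had log2 differences of 7.45 to 8.44. Among them were LPL, RNASE1, GNG11, TM4SF18, KDR, CD34, BCL6B, SELE, ECSCR, CDH5, APLNR, VAV3, TEK, RASGRP3, FLI1, MMP16, JAM3, IGFBP4 and CD44. LPL, the lipoprotein lipase that releases fatty acids at the vessel wall, was at 1042 ± 1196 CPM against 2.00 in TB. RNASE1, a ribonuclease that endothelium secretes, was at 900.4 ± 950.3 CPM against 1.63, and GNG11, a G-protein subunit, at 750.5 ± 369 CPM against 1.29. Their TB means were 0.109% to 0.410% of the EC means. All 20 had EC means above 200 CPM, so they are among the 45 EC genes described above. Their likeness to the level of those genes in TB (median 0.282%) thus follows from the choice of genes. The size and order of these differences depend on the low TB values and on the added 1 CPM. These 20 genes fell apart in their evenness. IGFBP4, which binds insulin-like growth factors, was at 88.7 CPM or more in every EC cell, whereas CD44, a hyaluronan receptor, was present in 21 cells with a median of 17.9 CPM. The lowest value of GNG11 (7.47 CPM) and of RNASE1 (7.97 CPM) was that of EC 15.

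The lists of other cell types were checked for cells that the culture could also hold. Counts in this and the following paragraphs stand beside 5.7% of all genes higher in EC and 7.96% lower. Trophoblast genes were higher in EC for 0 of 14 members and lower for 8, with a median log2 difference of -2.62 and a sum of 64.1 to 1701 CPM over the 37 cells other than EC 15, against 3134 to 18468 CPM in TB. KRT7 and CGB5 were near or at 0 in EC, VTCN1 was at 3.64 CPM against 1142 in TB, and KRT18, a keratin of simple epithelia, was present in every EC cell at 327 ± 346 CPM against 1926. TFAP2C was present in 3 EC cells, and without EC 15 its mean went from 29.3 to 3.20 CPM. Epithelial genes were lower in EC for 7 of 8 members, summed to 10.7 to 345 CPM in EC against 313 to 2853 CPM in TB, and EPCAM was at 1.06 CPM.

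Mesenchymal and smooth muscle genes were lower for 4 of 11 and higher for 0. COL1A2 was present in every EC cell (840.0 ± 757 CPM against 294), while its partner chain COL1A1 was present in 5 (21.8 ± 84.5 CPM against 279.8). COL3A1 (2.41 CPM) and LUM (10.2 CPM) were at the low level described above for genes of the other cell type, whose cause was not tested, at levels of 735 and 3042 CPM in TB. The list summed to 23.9 to 3786 CPM in EC and 855 to 10204 CPM in TB, and PDGFRB, a receptor of pericytes, was present in 4 EC cells.

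Mesoderm and cardiac genes were higher for 2 and lower for 2 of 14. TBXT, MIXL1, EOMES, TBX5 and FOXF1 were at 0 in EC, and HAND1 was at 0.732 CPM against 219 in TB. The higher genes, HAND2 and GATA4, were present in 5 and 2 cells. MEIS1 was present in 33 cells at 373 ± 352 CPM, below its 878 CPM in TB. Of 12 blood genes, 2 were higher (CD44 and MYB, the latter in 11 cells) and 0 were lower, against 5.7% and 7.96% of all genes. RUNX1, the factor that starts the turn from endothelium to blood, was present in 2 cells, EC 10 (248 CPM) and EC 25 (109 CPM), and SPI1 and GFI1 were at 0. Endoderm genes were within 4-fold for 10 of 10, 7 of them under 1 CPM. Of 10 neural genes, NES (128 ± 128 CPM in 33 cells), an intermediate filament that growing endothelium can also make, and OTX2 (3 cells) were higher.

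Pluripotency genes were higher for 1 and lower for 1 of 12, close to the shares over all genes, and they did not form a uniform remainder of the stem cells. SOX2 was at 0 in EC and UTF1 at 0.105 CPM. LIN28A, an RNA-binding protein of early cells, was present in every EC cell at 279.5 ± 179.8 CPM, near its 287 CPM in TB, and SALL4 in 34 cells. NANOG was present in every EC cell, but its mean without EC 15 was 44.8 ± 37.03 CPM (n = 37) against 33.99 in TB, and that of POU5F1 was 18.9 ± 21.7 CPM against 13.4. Both genes have near-identical copies elsewhere in the genome, so their low even level is uncertain as to its source. GDF3, the higher gene, was present in 7 cells at up to 700.2 CPM in EC 13.

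Cell-cycle genes set a small group of cells apart. The G2/M list of 15 genes summed to 5013 to 12877 CPM in 5 cells (EC 2, EC 6, EC 7, EC 12 and EC 37), which held 13 to 15 of its members at 10 CPM or more, and to at most 1907 CPM in the others, with a median of 142 CPM over all 38. TOP2A, which untangles chromosomes, was at a median of 3.52 CPM and reached 2336 CPM. Against TB, 1 of 15 members was higher (BUB1, a checkpoint kinase), close to the 5.7% over all genes, and 0 were lower, against 7.96%. Without those 5 cells 6 members were lower and 0 higher, and the call of BUB1 also ended without EC 7 (log2 difference 1.40 in place of 2.04) or without EC 15 (1.98). The S-phase list had 3 of 15 members lower and 0 higher. Its sums were 28.3 to 1153 CPM outside EC 15, and MCM2 was at a mean of 0.327 ± 0.826 CPM (n = 37) without EC 15, against 42.1 in TB.

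Immediate early and heat shock genes were lower in EC for 6 of 12 members and higher for 1. FOS, a transcription factor induced within minutes of a stimulus, was at 42.6 ± 153 CPM against 1062 in TB, with a median of 5.19 CPM, and EGR1 at 46.7 ± 175 CPM against 1018. The exceptions were single cells: FOS was at 946 CPM in EC 36 and EGR1 at 1042 CPM in EC 26. HSPA1A, a heat shock protein whose copy HSPA1B shares its reads, was at 2882 CPM in EC 27 and at 15.7 ± 35.8 CPM in the other 37, so that its call as higher rested on that cell. EC 27 also held the highest TEK level (1532 CPM).

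Several glycolysis genes, such as ENO1, SLC2A3 and LDHA, had means above 2000 CPM in EC. Of 13 glycolysis and hypoxia members 4 were higher, 1 was lower and 8 were present in every cell. LDHA, which makes lactate, was at 2135 ± 1462 CPM against 228 in TB, from 306 to 5738 CPM. ENO1 was at 5188 ± 2771 CPM against 967 and the glucose transporter SLC2A1 at 468 ± 439 CPM against 78.3. HK2 was at 95.9 ± 106 CPM against 20.9, with a call that ended without EC 37. SLC2A3 (3185 ± 1604 CPM against 841), PGK1, ALDOA and BNIP3 were 3.19- to 3.78-fold above TB by their means. GAPDH was near its TB level (6216 ± 2021 CPM against 5676), and HK1 and PKM were within 4-fold. PFKP was lower (14.3 against 117 CPM), and CA9, a target of hypoxia signalling, was at 0. The list summed to 9549 to 42050 CPM in EC and 2422 to 20571 CPM in TB. The MTRNR2L genes, which cannot be told apart by short reads, were higher in EC for 0 of 7, with sums of 2843 to 43086 CPM against 93.7 to 32778 CPM in TB. Their part in these levels was not tested.

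**Figure D3:**
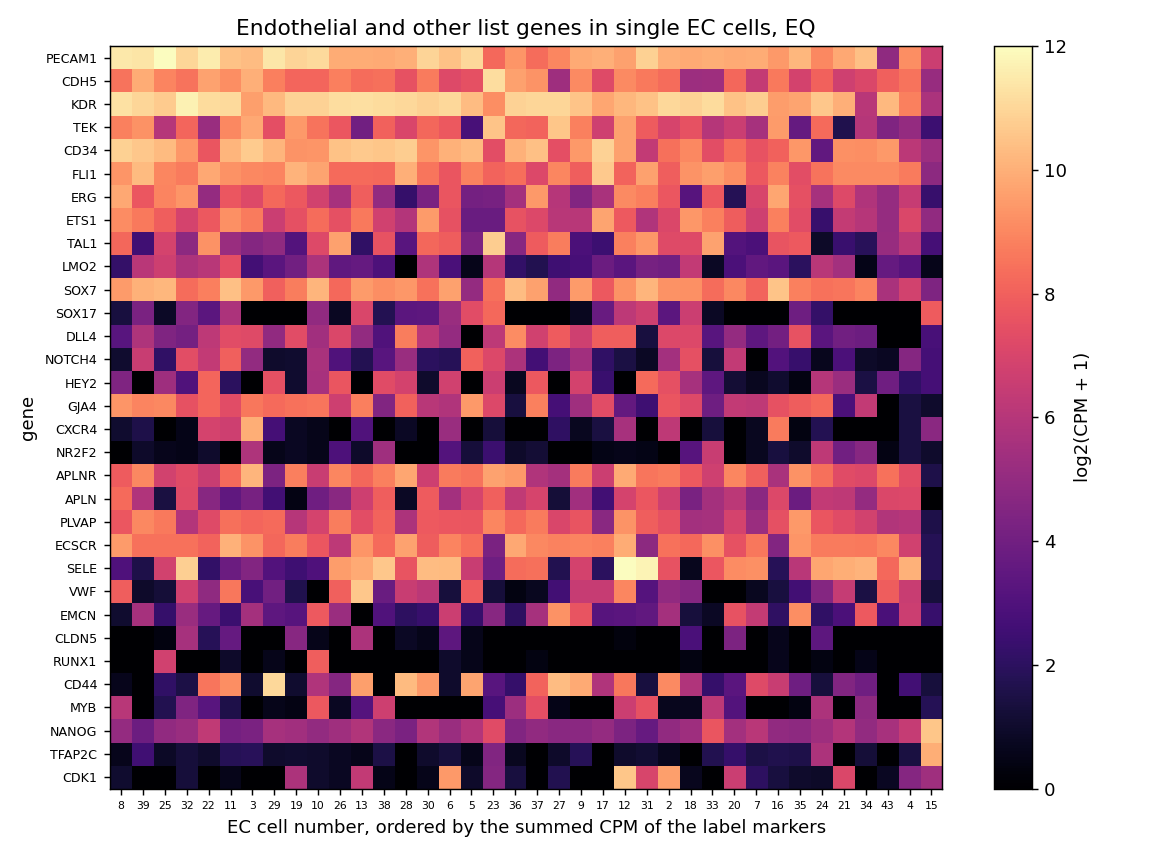
Level of 32 endothelial and other list genes (rows) in the 38 passing EC cells of EQ (columns, ordered by the sum of the label markers from high to low), coloured by log2(CPM + 1). KDR, FLI1 and SOX7 fill nearly every column, DLL4, SELE, VWF and CD44 are present in some columns and near 0 in others, and EC 15 at the right end is high in NANOG and TFAP2C and low in most endothelial genes.

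Variation between EC cells was measured as the variance of log2(CPM + 1) over the running median of genes of like mean, for 8234 genes of at least 10 CPM. A ratio of 1.5 or more was found for 14.6% of them. The 20 largest ratios, 3.33 to 6.47, belonged to LPL, ARRDC3, FN1, HAPLN1, RIN2, STC1, TXLNA, USP31, TGFBR1, ENPP1, SELE, PIP4K2A, TOB1, PHACTR2, TM4SF18, MMP16, TLK1, EDEM1, DAAM1 and CDC42BPA. Of these 20, 18 stayed among the 20 largest without EC 15, 18 in EQ-Vary, 15 in EQ-75% and 17 with a pseudocount of 10. LPL ranged from 0.942 CPM in EC 38 to 5716 CPM in EC 28, was under 10 CPM in 5 cells and at 1000 CPM or more in 16. FN1, the matrix protein fibronectin, was never absent but ranged from 22.3 to 6020.1 CPM. STC1, a secreted glycoprotein hormone, ranged from 0.363 to 6213 CPM, and HAPLN1, a link protein of hyaluronan matrix, from 24.9 CPM in EC 15 to 7238 CPM.

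Endothelial genes were found on both sides of the trend. Beside SELE, 4 of the 5 label markers (KDR 1.85, TEK 2.12, PECAM1 2.14 and CD34 2.47) had ratios above 1.5, as had PROCR (2.95), CD44 (2.82), FLT1 (2.48) and JAM3 (2.35). These ratios include EC 15, the lowest cell for KDR at 51.3 CPM against a median of 1806 CPM. The KDR ratio rests in part on that cell, and ratios of single genes without it are not given. CDH5, at 1.09, was close to the trend. FLI1 (0.82), TFPI (0.78), ESAM (0.58), EGFL7 (0.47) and IGFBP4 (0.39) varied less than genes of like mean. Some genes of low mean were at 0 in no cell. The 4252 genes with means of 10 to under 50 CPM had a median variance ratio of 0.906, and 63.7% of them were within 2-fold of TB. Of these, 647 were at 1 CPM or more in all 38 cells, with a median variance ratio of 0.188, and 82.1% of them were within 2-fold of TB. For 651 genes at 0 in at least 50% of the cells the median ratio was 1.03 and 52.4% were within 2-fold. Both sets were chosen by their low values, which enter the variance, so the gap between their ratios follows in part from the choice. The 647 genes were held to no upper limit in a single cell. JAM2, CAV2, NOS3, POU5F1, L1TD1 and CDH1 of the lists were among them, although L1TD1 reached 664 CPM, POU5F1 384 CPM, NOS3 258 CPM and CAV2 164 CPM in their highest cells.

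**Figure D4:**
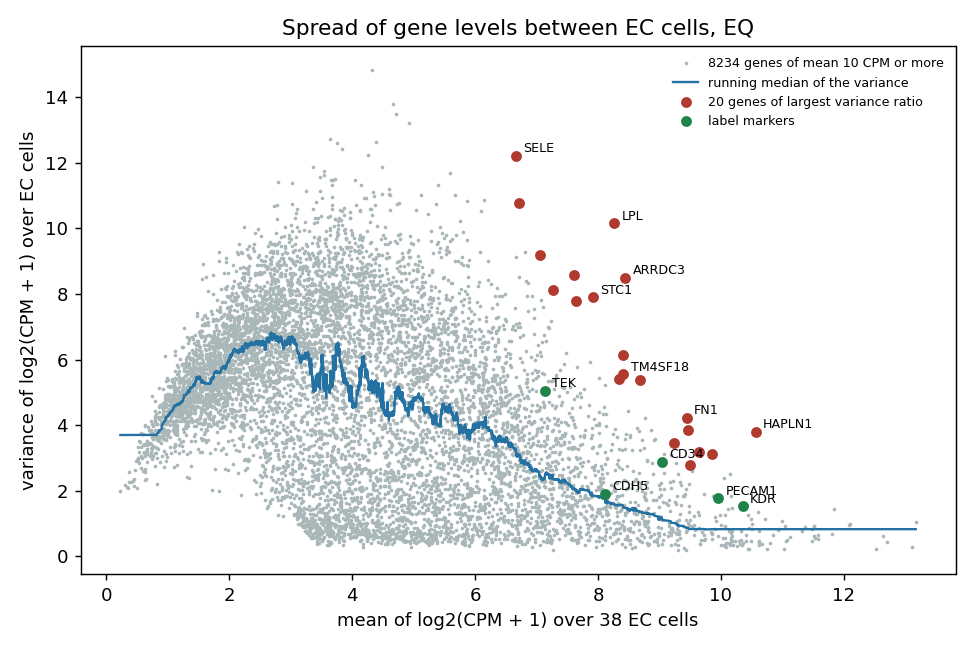
Variance of log2(CPM + 1) over the 38 passing EC cells against its mean for 8234 genes of at least 10 CPM (grey), with the running median (blue), the 20 genes of largest variance ratio (red) and the label markers (green). LPL and SELE stand far above the trend, CDH5 is close to it, and a separate band of genes with low variance runs along the bottom.

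The main axes of variation over the 1000 genes of highest variance ratio were weak. Component 1 held 7.05% of the variance and component 2 held 5.82%. At the positive end of component 1 were LPL, SYNJ2, HOPX, ADGRF5, SCHIP1, CD93, ALDOC, AKAP12, TM4SF1 and S100A16, of which ADGRF5, CD93 and TM4SF1 are surface proteins of endothelium. Genes at the negative end included SPEF2, LHX1, SELE, PDE3B, HAS2, VSNL1, CENPF and GNL2. HAS2 makes hyaluronan, LHX1 is a factor of early mesoderm and SELE is itself a surface protein of endothelium. Across the 38 cells, whose libraries were pooled in 1 lane, LPL ran against SELE, with r = -0.432 and Spearman rho = -0.405 (r = -0.334 without the 2 cells farthest from the median of LPL). In EQ-75% the rho was -0.424. This relation was chosen after the loadings were seen.

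Scores along component 1 were related to the mean log2 level of the pluripotency list (r = -0.635, rho = -0.646, r = -0.600 without the 2 extreme cells) and of the secreted and matrix list (r = 0.520, rho = 0.554, r = 0.547). Weaker relations were found with the junction list (r = 0.515, rho = 0.464, r = 0.380), the arterial list (r = 0.439, rho = 0.418, r = 0.319) and the label markers (r = 0.428, rho = 0.414, r = 0.359). The trophoblast list (r = -0.467, rho = -0.490, r = -0.452) and the G2/M list (r = -0.442, rho = -0.423, r = -0.390) ran the other way. Of the remaining endothelial lists, the receptor (r = 0.446), transcription factor (r = 0.371) and tip and stalk lists (r = 0.179) rose with the scores. The vessel wall list (r = -0.185, rho = -0.309, r = -0.248) and the venous list (r = -0.008, rho = -0.041, r = -0.080) did not. The scores were nearly unrelated to the log10 total count (r = -0.103, rho = -0.141, r = -0.211). Component 2 had, among others, TSPAN7, NAB2, UBE2L6, NAB1, THYN1, IL1RAP, TXNDC9, TCEB3 and TGFBR2 at its positive end and ZNF143, BARD1, GAD1, PRND, CRHBP, RCBTB2, FAM193A, LCMT1, TXNIP and ITM2A at its negative end. Its scores moved with the number of genes detected (r = 0.625, rho = 0.654, r = 0.597) and against the share of the 50 top genes (r = -0.584, rho = -0.528, r = -0.573), and the part of these in component 2 was not tested. It was also related to the vessel wall list (r = 0.575, rho = 0.514, r = 0.536). The genes that built the components included list members. Among them were KDR, TEK, CD34, JAM3, SELE of the vessel wall list and CENPF of the G2/M list. For lists with such members the correlations with the scores are therefore in part built in. They were not repeated without the shared genes, so the part of these genes was not tested. Without EC 15 the scores correlated with the original ones at 0.991 and 0.982.

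The 5 label markers varied with little relation to each other. Over the 10 pairs, Spearman's rho ranged from 0.007 (PECAM1 and TEK) to 0.505 (CDH5 and TEK), with a median of 0.240, and of 0.180 without EC 15. CDH5 and TEK gave r = 0.452 and r = 0.412 without the 2 extreme cells. By the fixed rule, the genes most like each marker, taken by the lower Spearman rho of EQ and EQ-75% among genes of at least 10 CPM, were CALU, ST6GALNAC6, CD99, BGN and MTPN for CD34, with CALU, a calcium-binding protein of the secretory pathway, at a rho of 0.712 in EQ and 0.707 in EQ-75%. For CDH5 they were OPTN, NAV1, PLVAP (0.680 and 0.505), TEK and STK10. For TEK they were KIAA0355, DAB2, NAV1, PGGT1B and CDH5, for PECAM1 FAM107B, CRIM1, GJA4 (0.584 and 0.561), BTG2 and RHOG, and for KDR FBLN1, RASIP1 (0.507 and 0.522), BAG5, GOLGA7 and MPP1. Of the 38 and 39 libraries that entered, 37 cells were common to both experiments, so the 2 values are not independent. The genes are the top of a search over all genes of at least 10 CPM, so their high rho follows in part from the choice. How high the top genes would reach without any relation was not tested.

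Differences between EC cells were found again when libraries were made and sequenced a second time from the same cDNA. In 37 cells that passed both times, the per-gene correlation of log2(CPM + 1) between EQ and EQ-75% had a median of 0.967 over 8234 genes, and 0.981 for 1031 genes of at least 200 CPM. With each cell set against the next cell number, the median was -0.010. Against EQ-Vary the median was 0.976 over 38 cells. The label markers had correlations of 0.985 (TEK) to 0.996 (KDR) with EQ-75%. The paired, within-cell difference EQ minus EQ-75% was 0.05 ± 0.16 (log2, SD, n = 37 cells) for PECAM1, 0.09 ± 0.23 for CDH5, 0.02 ± 0.12 for KDR, 0.06 ± 0.43 for TEK and 0.20 ± 0.31 for CD34. The level was higher in EQ in 24 of the 37 cells for PECAM1, 22 for CDH5, 19 for KDR, 18 for TEK and 29 for CD34.

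**Figure D5:**
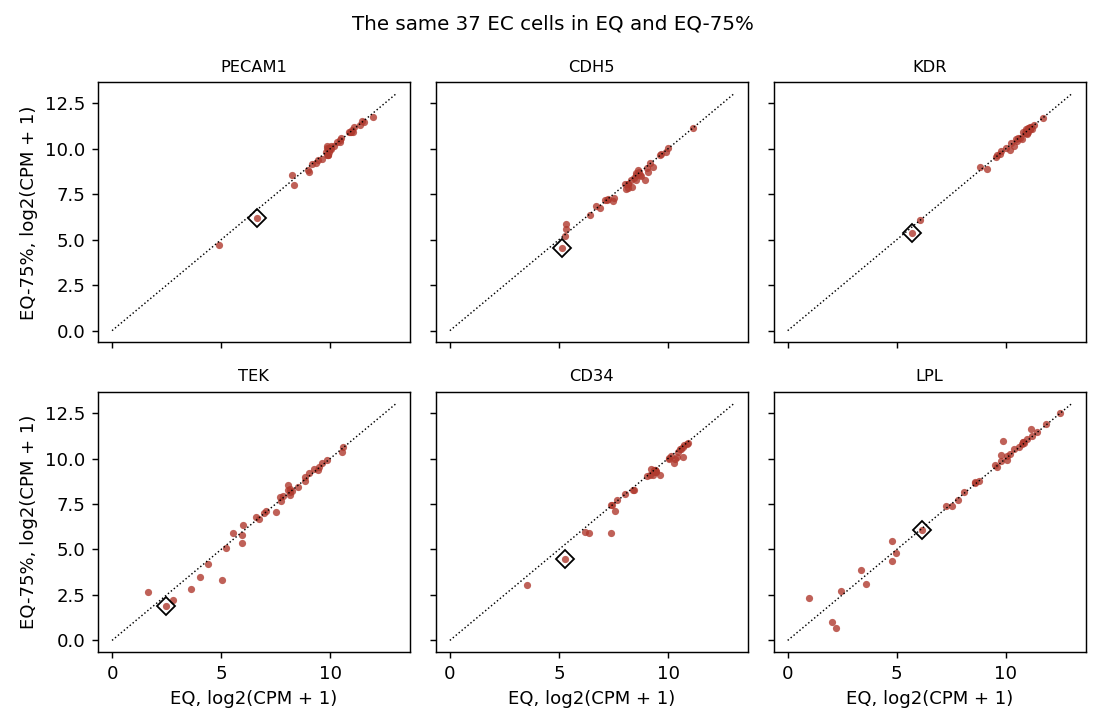
Level of the label markers and LPL in the same 37 EC cells in EQ (horizontal) and EQ-75% (vertical), both as log2(CPM + 1), with the line of equal values dotted and EC 15 as an open diamond. Points follow the line for each gene, with correlations of 0.985 to 0.996 for the markers, and EC 15 is low in both experiments.

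The number of genes detected, with at least 1 rounded count, was 8767 ± 520.5 in EC and 9274 ± 535 in TB. With every cell thinned to 251188 counts EC cells held 6780 ± 578 genes (SD, n = 38) and TB cells 7372 ± 564 (n = 48). The difference between the means was about the size of the SDs in either case.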

How the data were processed

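Cells, lists and thresholds were chosen with earlier results of these data known, so no list is independent support. The authors' processing, per the labels, trimmed reads to 51 bp, aligned them with Bowtie 1.2.3 allowing 2 mismatches to GRCh38 Ensembl protein-coding transcripts, and counted with RSEM 1.2.31 after base calling with CASAVA 1.8.2. The deposited values are expected counts, estimated per gene by RSEM and not normalized, for 17492 genes. RSEM divides reads that fit several near-identical genes, so single members of such families (MTRNR2L, HSPA1A, NANOG, POU5F1) are uncertain, and the cDNA kit carried no molecular identifiers.

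Expected counts were rounded and divided by each cell's total to give CPM. Cells passed with a log10 total of at least 5.4 and at most 31% of counts in the 50 top genes, and the study also removed doublets and dead cells by imaging of the chip in an earlier series of libraries. EC and TB were compared as log2 of (mean CPM + 1) with a limit of 4-fold and no filter. Each cell type is 1 sample, so no p-value was computed and intervals cover counting error only. Variance of log2(CPM + 1) was divided by the running median over 201 genes. Scripts were tested on simulated data.

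Named genes were the label markers, all members of 22 lists (246 of 257 genes measured), the 20 largest differences from TB, the 10 highest levels per length, the 20 largest variance ratios, the 10 genes at each end of 2 components and the 5 genes most like each marker. Genes named beyond this rule, among them those that set EC 15 apart, were chosen after their values were seen. A few genes that the rule names are not reported here. Alternatives were other experiments, limits, pseudocounts, scalings (TMM in edgeR 4.0.16, R 4.3.3; median of ratios) and cell sets. Tables were handled in pandas 2.3.3 under Python 3.11.15, statistics in scipy 1.17.1, arrays in numpy 2.4.6 and plots in matplotlib 3.10.9.

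The same-numbered libraries of EQ and EQ-75% pair by cell, since they come from the same cDNA. Positions are from GENCODE v44. No sequence is shown, as the data are RNA levels per gene.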

Additional observations from a re-analysis of the deposited data

Results flagged for a closer look

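The 7 EC libraries outside the limits enter no comparison, yet their label markers were above those of the 48 passing TB cells, whose highest sum was 96.3 CPM. The summed CPM of PECAM1, CDH5, KDR, TEK and CD34 was 3771 in EC 1, 3006 in EC 14 and 1150 in EC 41, the shallow libraries, in which 10 CPM is less than 1 count. Their trophoblast sums were 3858, 2179 and 2156 CPM, and their correlation with the EC mean exceeded that with the TB mean by 0.110, 0.053 and -0.001. In EQ-75% the same cells EC 1 and EC 14 passed the limits, with 1353266 and 1615757 counts and label marker sums of 4829 and 4238 CPM. EC 41 did not pass there, with 231125 counts and a sum of 2094 CPM. In EQ, the shallow TB libraries outside the limits, TB 4, TB 28 and TB 48, also held label marker sums above the passing TB cells, at 349, 1528 and 467 CPM, so such sums in shallow libraries were not particular to EC. The summed CPM of the label markers in EQ was 1945 in EC 40, 1297 in EC 42, 816.1 in EC 44 and 544.7 in EC 45, whose MTRNR2L genes took 98402 to 200406 CPM. The part of the MTRNR2L counts in these lower sums was not tested.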

How the results depend on the processing

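Of 636 alternative values, 594 stayed within the limit set for their result. The limits were 1 SD for levels, level differences and correlations, the 95% interval for shares of cells, 1.5-fold for counts and component shares, and the same side of 4-fold for log2 differences. The SD limits were wide (for CDH5 399 CPM at a mean of 406 CPM), and the size of the log2 differences was not tested. No alternative scaling moved the median of all genes by more than 0.1. This median says little about scaling, as genes near 0 CPM in both cell types stay near a difference of 0 under any scaling. It was 0.0 also with a pseudocount of 10, which changed the counts of calls. Counts of genes 4-fold higher and lower in EC (997 and 1392) were 1509 and 2281 with a pseudocount of 0.1, 381 and 400 with 10, and 2300 and 3235 at 2-fold. The count of higher genes was 590 with the median over cells and 631 without the highest EC cell of each gene, and that of lower genes 1572 and 2084. The last setting, and those without EC 15 and without the 5 cells of highest G2/M sum, were chosen after seeing the data. With a pseudocount of 10, the receptor list had 5 members higher, venous 2, haemogenic 1, mesoderm 0, neural 1 and G2/M 0, while secreted had 0 lower, S phase 1 and the endothelial lists together 1 (5 at 2-fold). With the median over cells, receptors had 5 higher, haemogenic 1, neural 1, and mesoderm, pluripotency, G2/M and immediate early genes 0, while venous had 2 lower, pluripotency 3 and G2/M 1. In EQ-75%, pluripotency had 2 lower. Without EC 15, venous had 2 lower and G2/M 0 higher. Without the 5 cells of highest G2/M sum, which were taken from EC alone, G2/M had 0 higher and 6 lower, in part by construction. Without the highest cell of each gene, venous had 2 lower, S phase 5 lower, and G2/M and immediate early genes 0 higher. CDH5 was present in 89.5% of EC cells at 50 CPM. TEK was present in 100% at 1 CPM or with 1 count after thinning and in 76.3% at 50 CPM. With a minimum mean of 50 CPM, 643 of 3982 genes reached a variance ratio of 1.5, fewer genes being scored. Apart from the construction of these settings, the cause was not tested.

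Without the pairing of cells (no replicate block), over all passing cells of each experiment (38 and 39), the difference EQ minus EQ-75% was 0.08 (log2) for PECAM1, 0.08 for CDH5, -0.02 for KDR, 0.11 for TEK and 0.22 for CD34. These values differ from the paired ones through the cells that enter, as EC 29 passed in EQ alone and EC 1 and EC 14 in EQ-75% alone. KDR differed in sign from its paired value of 0.02. The number of cultures is not given in the sources used here, so the spread between cultures is unknown.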
